A study of Mus musculus with 16 samples.

Results

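The chemokine ligand family was followed through RNA sequencing of back skin and of sorted hair follicle stem cells from mice labelled GRK2 eKO and their controls. Members were all gene rows whose mouse symbol begins with Ccl or Cxcl and a digit, together with Cx3cl1. The rule gave 39 members of 57005 gene rows listed in either of the deposited tables. Of these, 19 had enough signal to be tested in skin and 11 in the stem cells.

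All 4 groups were of strain C57BL/6. Skin control (n = 5) and skin eKO (n = 5) libraries held poly-A RNA of whole back skin from mice aged 8 months. HFSC control (n = 3) and HFSC eKO (n = 3) libraries held RNA of hair follicle stem cells, abbreviated HFSC, which are the CD34+ α6-integrin+ cells of the follicle bulge, isolated by fluorescence-activated sorting. The HFSC sample labels give an age of 18 months and the series design text gives 8 months, so their age is not settled. GRK2 is a kinase that phosphorylates activated G-protein-coupled receptors, the class to which chemokine receptors belong. The labels do not spell out eKO, and they give no Cre driver, promoter, sex or preparation batch. Nothing in the labels says whether the libraries of a group came from separate animals, so p-values measure the spread between these libraries.

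Chemokines are small secreted proteins that bind receptors on leukocytes and other cells and direct their migration. CC and CXC chemokines are named for the spacing of their first cysteines, and Cx3cl1 is the only CX3C member. In skin, some are made at rest by the epithelium or the stroma, such as Cxcl14, Ccl27a and Cxcl12, whereas others, such as Cxcl1, Cxcl2 and Ccl3, are induced in inflammation.

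Values below are normalised read counts, meaning the authors' reads per gene divided by a size factor for the library. Depth, in M reads (M for the SI prefix mega), ran from 11.6 to 14.2 in skin control, 8.21 to 16.4 in skin eKO, 6.43 to 6.73 in HFSC control and 6.43 to 9.39 in HFSC eKO. The targeted gene, Grk2, ranged from 1100 to 1492 in skin control and from 980 to 1224 in skin eKO, and from 121 to 144 in HFSC control against 104 to 122 in HFSC eKO. Its log2 fold change was -0.22 in skin (limma adjusted p = 0.343) and -0.24 in HFSC (limma adjusted p = 0.501). The labels do not say which exons were removed, and a sum over the whole gene does not check a partial deletion. The libraries skin control 5 and skin eKO 3 had Y-linked genes at background, unlike the other 8 skin libraries. In HFSC, the summed Y-linked signal was 2340 to 2476 in control and 704 to 831 in eKO, and the part of this in the HFSC results was not tested. The mean log2 value of hair matrix and shaft genes, which tracks hair growth, ran from 1.98 in skin control 1 to 11.6 in skin control 4.

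Of the members, 10 were listed at 0 in all 16 libraries, namely Ccl2, Ccl6, Ccl19, Ccl19-ps1, Ccl19-ps3, Ccl21a, Ccl21b, Cxcl10, Cxcl11 and Cxcl17. The ubiquitous gene B2m was also listed at 0 in all 16, so a listed 0 is not read here as absence of the transcript. Another 10 members had reads but stayed below the filter for testing, which asked for a value of at least 10 in 5 skin libraries or in 3 HFSC libraries. The remaining 19 were tested in skin, and 11 of them also in HFSC. The 8 tested in skin alone were Ccl5, Ccl8, Ccl9, Ccl11, Ccl12, Ccl22, Ccl24 and Cxcl13. Each of Ccl5, Ccl11, Ccl12, Ccl24 and Cxcl13 was listed at 0 in all 6 HFSC libraries.

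The order of levels within the family was set on RPKM, the reads per kilobase of exon scaled to the depth of the library, computed from the recovered reads and GENCODE M21 exon lengths. Cxcl14 had the highest mean in every group. In skin control 2, however, Ccl9 (105 RPKM) lay above Cxcl14 (89.7 RPKM), and in skin eKO 5 Ccl8 (89.1 RPKM) lay above Cxcl14 (86.6 RPKM). In HFSC, the RPKM level of Cxcl14 was 1202 ± 18.7 (SD, n = 3) in HFSC control and 1261 ± 32.1 (SD, n = 3) in HFSC eKO, which was 88.6% and 89.3% of the family's summed level. Members listed at 0 add nothing to this sum, so the order and shares, in skin too, cover only the members that were counted. Cxcl12 came next in HFSC at 93.6 ± 2.62 RPKM in control and 54.4 ± 6.83 in eKO. Cxcl16 followed at 26.7 ± 2.37 and 46.2 ± 4.89 RPKM, and then Cx3cl1 at 14.7 ± 1.81 and 20.1 ± 2.93 RPKM. In HFSC control the libraries of these 4 members did not overlap. In HFSC eKO the lowest Cxcl12 library (46.5 RPKM) lay below the highest Cxcl16 library (51.6 RPKM). Ccl27a, Ccl7 and Ccl20 were neighbours in HFSC eKO at 7.18 ± 0.0863, 7.17 ± 2.59 and 6.62 ± 1.53 RPKM, which did not differ beyond their spread.

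Skin had a flatter order. Cxcl14 made up 41.3% of the summed RPKM in skin control and 35.3% in skin eKO, at 124 ± 36.3 and 137 ± 60.8 RPKM (SD, n = 5). Ccl8 came second at 44.7 ± 26.6 RPKM in control and 83.8 ± 21.0 in eKO. In skin control, Ccl9, Cxcl12 and Ccl11 followed at 27.7 ± 43.7, 25.6 ± 12.2 and 20.9 ± 7.46 RPKM, and these 3 overlapped with each other and with Ccl8. The tables were normalised separately, so no test was made of levels between skin and HFSC.

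**Figure D1:**
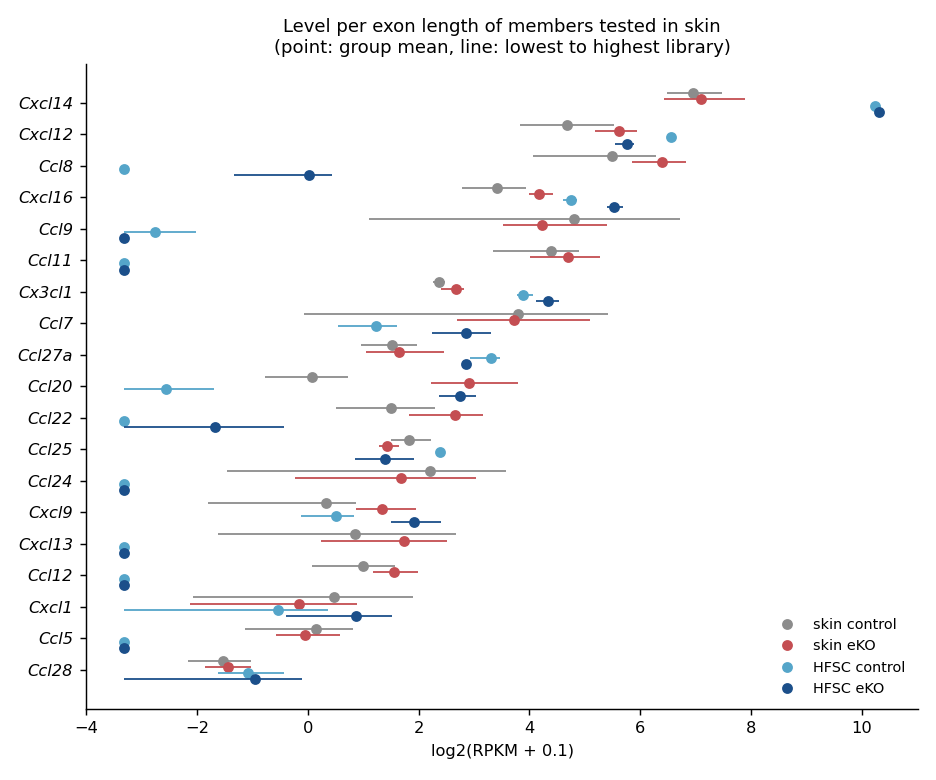
Level per exon length, as log2 of RPKM plus 0.1, for the 19 members tested in skin, in the 4 groups. Points are group means and lines run from the lowest to the highest library; Cxcl14 has the highest mean in every group, and several members of the inflammatory groups sit at the left edge, where the value is 0, in HFSC.

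Genotype effects were tested with limma on log2(value + 1) across all genes of a tissue, with a Benjamini-Hochberg adjusted p under 0.05 as the threshold. In skin, 1 of 19 tested members passed as higher in eKO, which was Ccl20, against 0.229% of all 16589 genes tested. Skin controls 3 and 4 held Ccl20 at 8.35 and 8.402, so it met the filter only with its eKO libraries. This count is therefore a description and not independent evidence of a rise. No member passed as lower by limma or by edgeR, against 0.145% of all genes, while DESeq2 passed 1, Ccl25. At an unadjusted p under 0.05 limma had 7 members higher and 1 lower, against 14.2% of all genes in either direction. The median log2 fold change was 0.48 over the 19 members and 5.9e-05 over all genes tested, and 15 of the 19 were positive. Groups did not overlap for 2 members, against 4.18% of all genes: Ccl20 lay above (1.74% of all genes did) and Ccl25 below (2.45%). The number of members called higher in skin was 0 without eKO 1 or without eKO 5. Among marker lists, upper follicle genes summed to 19095 to 24990 in skin control and 37568 to 69702 in skin eKO, with 2 of 6 tested higher, and their part in the skin results was not tested. Leukocyte genes summed to 2722 to 8259 in skin control and 6074 to 8814 in skin eKO, with 0 of 10 called by limma or edgeR, 1 higher by DESeq2, and 2 higher at an unadjusted p under 0.05 in limma.

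In HFSC, 5 of 11 tested members rose in eKO, namely Ccl20, Ccl7, Cx3cl1, Cxcl16 and Cxcl9, against 10.7% of all 13784 genes tested. Ccl20 entered the HFSC test through its eKO libraries alone, and its rise in both tissues was known when the family was chosen. Ccl7 too met the HFSC filter only with its eKO libraries, since HFSC control 2 was at 7.36. The places of Ccl20 and Ccl7 in these counts are therefore a description and not independent evidence of a rise. Another 2 fell, Ccl25 and Cxcl12, against 8.74% of all genes. Scaling by library size alone gave 3 higher and 2 lower. Leaving out each library in turn gave 2 to 5 higher and 1 to 2 lower, with 2 higher without HFSC control 2 and 3 without HFSC control 3, eKO 2 or eKO 3, and with 1 lower without HFSC control 2, control 3 or eKO 3. The median log2 fold change was 0.52 over the 11 members and -0.03 over all genes. Groups did not overlap for 8 members, against 36.3% of all genes, with 6 above (18.9% of all genes) and 2 below (17.4%). Of these 8, Cxcl14 did not pass the test.

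Markers of other cell types moved with genotype in the sorted cells. The summed value of the endothelial list was 14.7 to 44.0 in HFSC control and 1016 to 1209 in HFSC eKO, with 6 of its 7 tested genes called higher and Cldn5 at 0. For the upper follicle list the sum was 4813 to 5166 in control and 12331 to 12881 in eKO, with 6 of 6 tested genes higher and Plet1 at 0. Of the differentiated epidermis list 5 of 6 tested genes were higher (sum 2531 to 4360 in control, 16698 to 17502 in eKO), and of the stressed keratinocyte list 4 of 4 (369 to 423 and 1130 to 1262). Sebaceous gland genes were higher in 5 of 6 (2360 to 2449 and 9753 to 11090.1), and hair matrix and shaft genes in 7 of 8 (598 to 667 and 2244 to 2522). The leukocyte sum was 212 to 216 in control and 869 to 1542 in eKO, with 1 of 5 tested genes higher, Cd74. The median log2 fold change of these 5 genes was -0.20. T cell genes summed to 61.0 to 67.8 in control and 175 to 242 in eKO, with 1 of 2 tested genes higher and Trdc at 0. Macrophage and dendritic cell genes summed to 90.8 to 104 in control and 39.4 to 108 in eKO, with 0 of 3 tested genes higher by limma, DESeq2 or edgeR, none of them higher at an unadjusted p under 0.05, and 1 lower. Bulge stem cell genes summed to 154345 to 157434 in control and 134285 to 153395 in eKO, with 1 of 8 higher and 1 lower. Beside these counts, 10.7% of all genes tested in HFSC were higher and 8.74% lower. The part of these lists in the HFSC results was not tested. In bulk samples such as these, a change in the number of cells of a type and a change in RNA per cell cannot be told apart.

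**Figure D2:**
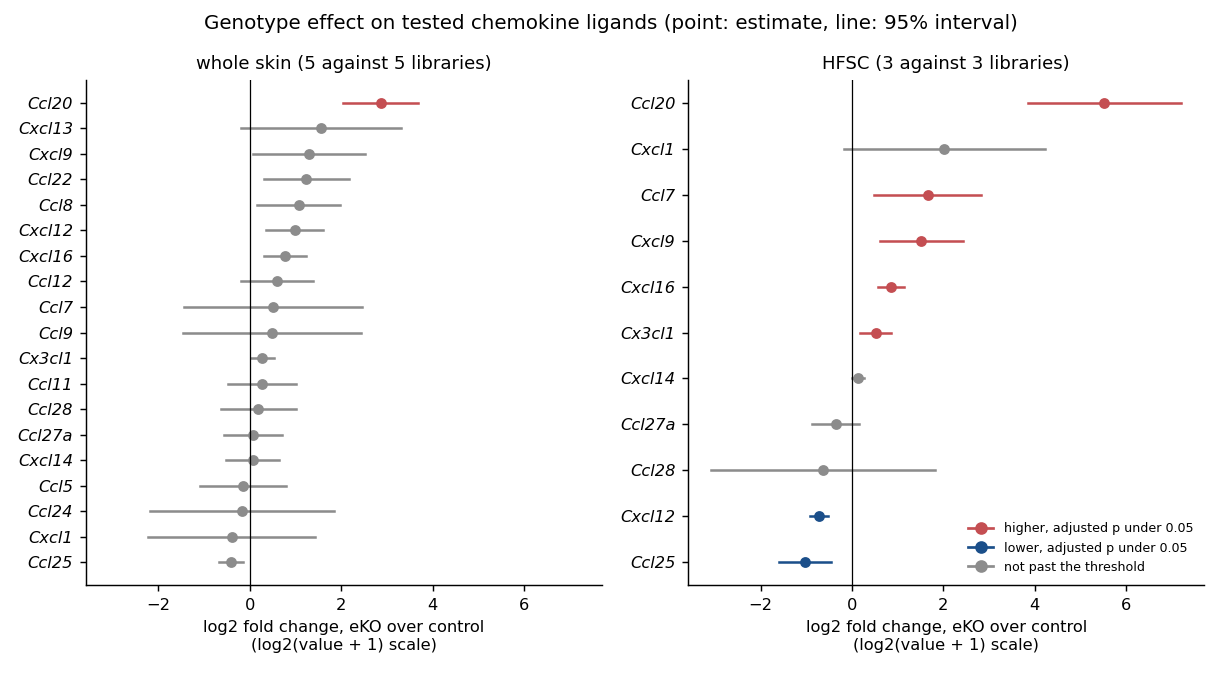
Log2 fold change of eKO over control on the log2(value + 1) scale for the 19 members tested in skin (left, 5 against 5 libraries) and the 11 tested in HFSC (right, 3 against 3). Points are limma estimates, lines are 95% intervals, and colour marks an adjusted p under 0.05; Ccl20 lies farthest to the right in both tissues.

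Ccl20 was the member with the largest fold change in both tissues. It is made by epithelia, including the follicle, and binds Ccr6 on Langerhans cell precursors, B cells and interleukin-17-producing T cells. The file lists it as ENSMUSG00000026166. Its RefSeq promoter on GRCm38.p6, the 120 bases before the start at chr1:83116646-83116765 on the plus strand, is shown because this gene carries the result common to both tissues.

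Ccl20: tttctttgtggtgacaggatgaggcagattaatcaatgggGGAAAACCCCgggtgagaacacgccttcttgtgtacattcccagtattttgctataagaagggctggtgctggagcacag

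Capitals mark GGAAAACCCC, a match on the minus strand to the degenerate kappa B consensus, a 10-base pattern bound by NF-kB factors, with its first base at -80 from the start. Searched on both strands, the consensus occurred in the 250 bases before the start of 7.25% of 32851 RefSeq mouse promoters. It occurred in 7 of the 26 members with a promoter entry, counted per member over their 32 promoters.

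In skin control 1 to 5, Ccl20 stood at 15.1, 21.9, 8.35, 8.402 and 24.7. In skin eKO 1 to 5 it stood at 99.7, 76.6, 206, 84.3 and 126. Every eKO library lay above every control library, and eKO 3 was the highest. On the log2 scale Ccl20 rose by 2.87 (SE 0.37, limma adjusted p = 0.0136), which is 7.31-fold with a 95% interval of 4.14 to 12.9. Without both libraries at Y-linked background it was 2.84 (limma adjusted p = 0.0711). Without control 2 and eKO 4, the libraries with the highest Ccl9 of their groups, it was 3.11 (limma adjusted p = 0.0594), an alternative chosen after seeing the data. Leaving out eKO 1 gave an adjusted p of 0.0539 and leaving out eKO 5 gave 0.0518, both with limma.

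In HFSC control 1 to 3, Ccl20 was 0, 0 and 2.00, and in HFSC eKO 1 to 3 it was 81.9, 50.4 and 67.1. The control libraries together held 2 reads and the eKO libraries 217. Relative to depth the ratio was 101, with an exact counting interval of 27.7 to 840 that covers counting error only. The limma estimate of 5.52 on the log2 scale (SE 0.78, adjusted p = 3.30e-04) depends on the added 1, since the controls are near 0. Its call held in each of the 6 fits that left out a library.

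**Figure D3:**
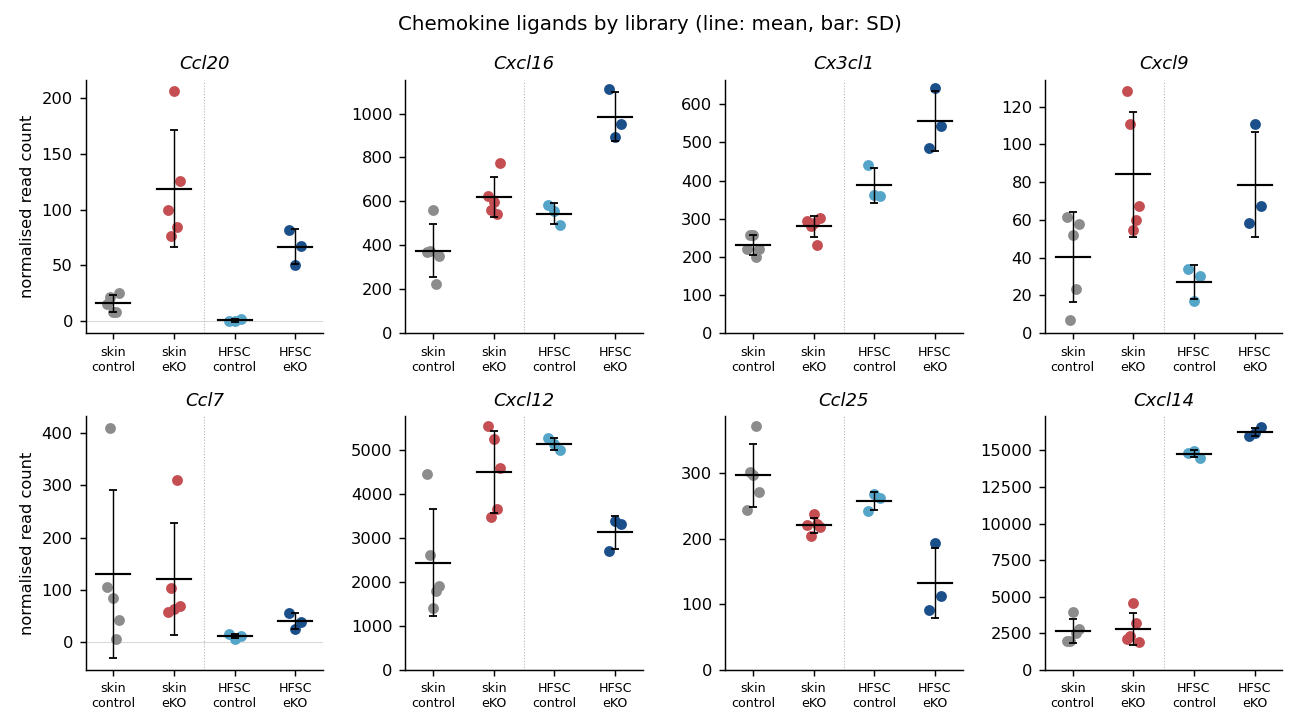
Normalised read count of 8 chemokine ligands in each library of the 4 groups, on linear axes that start at or below 0. Points are libraries, horizontal lines are group means and bars are SDs; Ccl20 is at 0 to 2.00 in HFSC control and at 50.4 to 81.9 in HFSC eKO, and Cxcl12 is lower in HFSC eKO than in HFSC control.

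Cxcl16 is a membrane-bound chemokine that can be shed and that binds Cxcr6 on T and natural killer cells. In HFSC control 1 to 3 it stood at 584, 554 and 492, and in HFSC eKO 1 to 3 at 1109.9, 896 and 954. All eKO libraries lay above all control libraries. The log2 fold change was 0.86 (SE 0.13, limma adjusted p = 5.76e-04), a 1.81-fold rise with a 95% interval of 1.49 to 2.20. Across skin control 1 to 5 it stood at 369, 376, 561, 223 and 349.8, and in skin eKO 1 to 5 at 623, 562, 596, 544 and 774. Only skin control 3 reached into the eKO range. The skin log2 fold change was 0.77 (SE 0.21, limma adjusted p = 0.141), and DESeq2 on recovered reads gave 0.72 (adjusted p = 0.0321). In GENCODE M21, Cxcl16 (ENSMUSG00000018920) shares 18.3% of its exon bases with Zmynd15 on the other strand. Zmynd15 rose in skin from 169 to 391 (log2 fold change 1.19, limma adjusted p = 0.0420), whereas in HFSC its log2 fold change was 0.23 (limma adjusted p = 0.758). Strand use in counting is not given in the sources used here, so reads in the shared stretch cannot be told apart.

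Cx3cl1, or fractalkine, is anchored in the cell membrane and binds Cx3cr1 on macrophages, Langerhans cells and some T cells. HFSC control 1 to 3 held 441, 362 and 359.9, and HFSC eKO 1 to 3 held 486, 642 and 542. The groups did not overlap, with a gap between control 1 and eKO 1 that was smaller than the range of either group. The log2 fold change was 0.52 (SE 0.16, limma adjusted p = 0.0333). That call passed in 2 of 6 fits that left out a library and was lost with scaling by library size alone (0.45, limma adjusted p = 0.0607). In skin the values were 221, 256, 258, 199.8 and 220.5 in control 1 to 5 and 295, 282, 288, 232 and 303 in eKO 1 to 5. Skin eKO 4 was the only eKO library inside the control range, and the log2 fold change was 0.28 (limma adjusted p = 0.306).

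Cxcl14, a chemokine that epithelia make at rest, had the highest mean RPKM of the counted members and did not pass in either tissue. HFSC control 1 to 3 stood at 14855, 14960.3 and 14508, and HFSC eKO 1 to 3 at 15997, 16197 and 16588. The groups did not overlap, but the log2 fold change was 0.14 (SE 0.06, limma adjusted p = 0.137). In skin control 1 to 5 it stood at 1982, 1957, 3941, 2507 and 2791, and in skin eKO 1 to 5 at 2106, 2321, 4549, 3169.8 and 1899.7. These ranges overlapped, with an estimate of 0.06 on the log2 scale (95% interval -0.51 to 0.64, limma adjusted p = 0.934).

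Ccl25 binds Ccr9 and is best known from thymus and small intestine. It was the only member with a negative estimate in both tissues. HFSC control 1 to 3 held 242, 268 and 262, and HFSC eKO 1 to 3 held 91.0, 193 and 113. All eKO libraries lay below all control libraries, and eKO 2 was nearest to them. Ccl25 fell by 1.03 on the log2 scale (SE 0.26, limma adjusted p = 0.0153). The call was lost without control 2, without control 3 and without eKO 3, with a limma adjusted p of at most 0.0704. Across skin control 1 to 5 it stood at 243, 301, 297, 372 and 271, and in skin eKO 1 to 5 at 220.9, 204, 237, 222 and 218. Here too every eKO library lay below every control library, though the estimate of -0.41 on the log2 scale (SE 0.12, limma adjusted p = 0.164) did not pass. DESeq2 gave -0.43 with an adjusted p of 0.0437.

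The keratinocyte chemokines Ccl27a and Ccl28, both ligands of Ccr10, did not pass in either tissue. Ccl27a was 175, 176 and 119.98 in HFSC control 1 to 3 and 121, 122 and 118 in HFSC eKO 1 to 3, with an estimate of -0.36 on the log2 scale (limma adjusted p = 0.323). In skin its log2 fold change was 0.07 (95% interval -0.56 to 0.70). Ccl28 was at most 28.8 in any HFSC library and at most 22.7 in any skin library.

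Cxcl9 is induced by interferon-gamma and binds Cxcr3 on activated T cells. In HFSC control 1 to 3 it stood at 33.9, 16.8 and 30.0, and in HFSC eKO 1 to 3 at 58.4, 111 and 67.1. The eKO libraries all lay above the controls, with eKO 2 the highest. The log2 fold change was 1.52 (SE 0.42, limma adjusted p = 0.0230), and it missed the threshold without control 2 (limma adjusted p = 0.0943) and without eKO 2 (limma adjusted p = 0.0824). In skin control 1 to 5 the values were 61.5, 6.75, 52.2, 23.3 and 58.0, and in skin eKO 1 to 5 they were 128, 111, 54.6, 59.9 and 67.3. The ranges overlapped, control 2 was the lowest library, and the log2 fold change was 1.30 (SE 0.55, limma adjusted p = 0.318). Cxcl10 and Cxcl11, the other Cxcr3 ligands, were listed at 0. GENCODE M21 types Cxcl11 as a polymorphic pseudogene, with 41.7% of its exon bases shared with Gm2673.

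Among the MCP and eotaxin group, which acts mainly on monocytes and eosinophils, Ccl7 was the member with enough signal in HFSC. It stood at 15.96, 7.36 and 13.0 in HFSC control 1 to 3 and at 56.1, 26.3 and 39.4 in HFSC eKO 1 to 3. Every eKO library lay above the controls. Ccl7 rose by 1.66 on the log2 scale (SE 0.54, limma adjusted p = 0.0475), close to the threshold, and it passed in 1 of 6 fits that left out a library. With edgeR the adjusted p was 0.0524, and without the filter on low values limma gave 0.106.

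In skin, Ccl7 was dominated by a single library in each group. Skin control 1 to 5 held 106, 409.8, 85.6, 7.47 and 43.7, and skin eKO 1 to 5 held 57.9, 103, 63.6, 309.9 and 68.7. The limma log2 fold change was 0.51 (SE 0.88, adjusted p = 0.83), and edgeR gave -0.12. Ccl8, another MCP chemokine, was 401, 475, 143, 92.4 and 229 in skin control 1 to 5 and 495, 347, 389.8, 665 and 547 in skin eKO 1 to 5. Controls 3, 4 and 5 lay below every eKO library, and controls 1 and 2 lay among them. Its estimate was 1.07 on the log2 scale (SE 0.41, limma adjusted p = 0.271). Ccl8 had 0 reads in the HFSC controls and 11 in HFSC eKO, spread over all 3 libraries. Relative to depth that was 3.42 times a floor of 3 reads for the control group, which is not a lower bound. The eotaxins Ccl11 and Ccl24 and the MCP chemokine Ccl12 had skin log2 fold changes of 0.26, -0.17 and 0.60, none past the threshold.

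Ccl22, which dendritic cells make and which binds Ccr4, was 52.0, 133, 115, 33.6 and 41.8 in skin control 1 to 5 and 109.5, 94.2, 216, 154 and 247 in skin eKO 1 to 5. Controls 2 and 3 lay inside the eKO range, and the estimate was 1.23 on the log2 scale (SE 0.42, limma adjusted p = 0.222). In HFSC it had 0 control reads and 14 eKO reads. All 14 were in eKO 1, so the ratio of 4.35 to the same floor rests on 1 library. Ccl1, a ligand of Ccr8, had 0 control reads and 10 eKO reads in HFSC, 3.11 times that floor, with reads in all 3 eKO libraries. In skin, Ccl1 reached 24.9 in eKO 5 and at most 3.37 in any control library. Ccl17, the other Ccr4 ligand, was at most 6.27 in skin control and reached 16.1 in skin eKO 5. Ccl1 and Ccl17 did not reach the filter for testing.

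Ccl9, a ligand of Ccr1, was 520.3, 3830.4, 187, 68.1 and 401 in skin control 1 to 5 and 415, 407, 406, 1467 and 549.9 in skin eKO 1 to 5. The control range enclosed the whole eKO range. The limma log2 fold change was 0.48 (SE 0.88, adjusted p = 0.840), and edgeR and DESeq2 both gave -0.63. Ccl5, which attracts T cells and monocytes, ran from 3.73 to 18.9 over the skin libraries, with an estimate of -0.14 on the log2 scale (limma adjusted p = 0.909).

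Skin control 2 stood apart in the inflammatory members. Of 28 members with a read in skin, 10 were highest in this library, namely Ccl3, Ccl4, Ccl7, Ccl9, Ccl24, Cxcl1, Cxcl2, Cxcl3, Cxcl5 and Cxcl13. Of the Cxcr2 ligands, which recruit neutrophils, Cxcl2 was 200.7 there and at most 14.2 in the other 9 skin libraries. Cxcl5 was 129.8 there and at most 3.21 elsewhere, and Cxcl3 was 39.6 against at most 7.31. Ccl3 and Ccl4, which attract monocytes and T cells, were 46.4 and 36.3 there and at most 14.0 and 7.85 elsewhere. The lymphoid Cxcr5 ligand Cxcl13 was 86.0 there, with 3.13 to 74.0 in the other libraries, whereas Cxcl9 was lowest there.

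Markers of some other cells stood apart in the same library. The general leukocyte sum did not, at 7486 against 2722 to 8259 in the other controls and 6074 to 8814 in eKO. Macrophage and dendritic cell genes summed to 15285 in skin control 2, against 2448 to 10600.0 in the other controls and 7457 to 10592 in eKO. Neutrophil genes summed to 377, against 8.40 to 103 in the other controls and up to 243 in eKO, with Ly6g at 0 in all 10 skin libraries. Stressed keratinocyte genes summed to 16931, against 2943 to 11075 in the other controls and 7319 to 29234 in eKO. Of this list, the wound and stress keratins Krt6b and Krt16 were 2895 and 4436 there, against 0 to 10.4 and 148 to 544 in the other controls. Sprr1a went the other way, at 4239 there against 4855 in control 3 and 9936 in control 4. In skin eKO 4, Krt6b was 2824 and Krt16 was 9281. The part of these genes in the chemokine values was not tested.

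Promoters of Cxcl1, Cxcl2 and Cxcl3 are shown as neighbours on chromosome 5 that all peaked in skin control 2, a choice made after their values and motifs were seen. Of the 10 members highest in that library, 6 have a promoter entry and 4 of these hold a kappa B match. Beside this stand 7 of 26 members of the family and 7.25% of all promoters. Cxcl1, Cxcl2 and Cxcl3, which are among these 4, are neighbours with the same site, so they are not separate cases. In Ccl3 and Cxcl13 the pattern was not found within the 250 bases.

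Cxcl1: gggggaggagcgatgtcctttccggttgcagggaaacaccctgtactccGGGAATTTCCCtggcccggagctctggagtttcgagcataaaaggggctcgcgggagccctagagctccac
Cxcl2: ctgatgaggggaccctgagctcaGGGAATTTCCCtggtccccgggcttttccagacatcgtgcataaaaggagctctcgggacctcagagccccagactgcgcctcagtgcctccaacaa
Cxcl3: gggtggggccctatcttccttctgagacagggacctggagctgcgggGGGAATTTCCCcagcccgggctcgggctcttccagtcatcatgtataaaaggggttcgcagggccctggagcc

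These are the 120 bases before the RefSeq start on the plus strand of GRCm38.p6, at chr5:90891125-90891244, chr5:90903779-90903898 and chr5:90785981-90786100. Capitals mark GGGAATTTCCC, which holds a match on each strand, shifted by 1 base, beginning at -71, -97 and -73. Besides these 3 and Ccl20, the members with a match within 250 bases were Ccl1, Ccl9 and Cxcl10. A match describes the letters and says nothing of binding in these samples.

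Cxcl1 itself did not pass in either tissue. In skin control 1 to 5 it stood at 29.3, 81.8, 21.9, 2.80 and 8.55, and in skin eKO 1 to 5 at 20.5, 12.8, 10.9, 37.4 and 2.92, with an estimate of -0.40 on the log2 scale (limma adjusted p = 0.864). In HFSC control 1 to 3 it stood at 0, 7.36 and 14.997, and in HFSC eKO 1 to 3 at 23.5, 8.77 and 36.2. The HFSC groups overlapped and the log2 fold change was 2.02 (SE 1.02, limma adjusted p = 0.191).

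**Figure D4:**
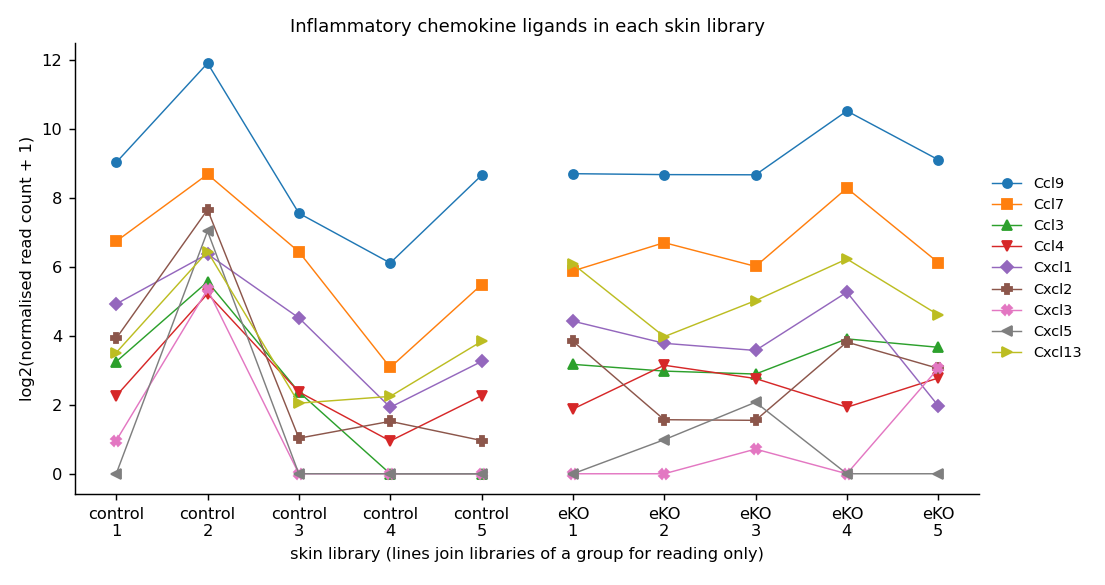
Log2(normalised read count + 1) of 9 inflammatory chemokine ligands in each of the 10 skin libraries. Lines join libraries of a group only to guide the eye; all 9 members peak in control 2 among the controls, where Cxcl2 is 200.7 and Cxcl5 is 129.8 as normalised read counts.

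Skin control 4 lay at the other end. It had the lowest value of the 10 libraries in 11 of the 19 tested members, and it was the library with the highest mean of the hair matrix and shaft genes. Leaving it out turned the sign of Ccl7 to -0.24 and of Ccl9 to -0.15 (log2 fold change). With the mean of the hair list as a covariate, limma called 1 member higher and 0 lower in skin, as it did without the covariate.

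Cxcl12, the stromal chemokine that binds Cxcr4 and Ackr3, had estimates of opposite sign in the tissues. HFSC control 1 to 3 stood at 5279, 5142 and 5020.01, and HFSC eKO 1 to 3 at 2707, 3390.5 and 3314. All eKO libraries lay far below the controls. It fell by 0.72 on the log2 scale (SE 0.09, limma adjusted p = 1.96e-04) in HFSC, to 0.607 of the control level with a 95% interval of 0.526 to 0.699. Skin control 1 to 5 stood at 4469, 2616, 1402, 1801 and 1908, and in skin eKO 1 to 5 at 5558, 3479.9, 5265, 3658 and 4592. Control 1 lay inside the eKO range and the other 4 controls lay below it. The skin log2 fold change was 0.98 (SE 0.28, limma adjusted p = 0.159). Cxcl13 had an estimate of 1.57 in skin on the log2 scale (SE 0.79, limma adjusted p = 0.409), and its values ran from 3.13 to 86.0 in control and from 14.7 to 74.0 in eKO.

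Whether the eKO effect differed between skin and HFSC was tested on the 11 members with enough signal in both, as a contrast in a limma fit of all 4 groups. Of these 11, 6 had positive estimates in both tissues, 1 had negative estimates in both and 4 had opposite signs. The difference passed for 2 of 11, against 5.62% of all 13227 genes. For Cxcl12 the HFSC effect was lower than the skin effect by a log2 difference of -1.71 (SE 0.38, limma adjusted p = 0.0150), against 2.18% of all genes called in this direction. That call held in each of the 16 fits that left out a library. For Ccl20 the HFSC effect was higher by 2.65 (SE 0.67, limma adjusted p = 0.0280), against 3.44% of all genes in this direction. With 5 added to each value in place of 1, the Ccl20 difference was 1.08 (limma adjusted p = 0.220). It passed in 10 of 16 fits that left out a library, and was lost without skin eKO 1, skin eKO 2, HFSC control 1, HFSC control 2, HFSC eKO 1 or HFSC eKO 3. For Cxcl16 the difference was 0.09 with a 95% interval of -0.53 to 0.70 (limma adjusted p = 0.902), and for Cx3cl1 it was 0.24 with an interval of -0.17 to 0.65 (limma adjusted p = 0.508).

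The receptors of these ligands were counted from a list of 24 signalling and scavenging receptors. In skin 17 were tested and 0 passed by limma or edgeR, and DESeq2 called 1 higher. At an unadjusted p under 0.05 limma had 3 higher and 0 lower, against 14.2% of all genes in either direction. The median log2 fold change of the 17 was 0.68, beside 5.9e-05 over all genes. In HFSC 7 were tested and 1 rose, against 10.7% of all genes. It was Ackr1, a scavenging receptor of venular endothelium and red cells that binds many inflammatory chemokines. By edgeR 1 and by DESeq2 2 were called higher. At an unadjusted p under 0.05 limma had 2 higher and 0 lower, against 32.8% of all genes in either direction. Ackr1 stood at 17.0, 6.31 and 4.00 in HFSC control 1 to 3 and at 395, 248 and 299 in HFSC eKO 1 to 3, which is 5.15 on the log2 scale (SE 0.46, limma adjusted p = 9.26e-06). The endothelial list whose sums are given above was also higher in HFSC eKO, and a link between it and Ackr1 was not tested. In skin the Ackr1 log2 fold change was -0.01 (limma adjusted p = 0.995).

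The receptor of Ccl20, Ccr6, was listed at 0 in all 6 HFSC libraries and averaged 22.8 ± 12.3 (SD, n = 5) in skin control and 34.6 ± 5.74 (SD, n = 5) in skin eKO, or 0.71 on the log2 scale (limma adjusted p = 0.379). Cxcr4, the receptor of Cxcl12, stood at 0.76 on the log2 scale in skin (limma adjusted p = 0.275) and Cx3cr1 at 0.60 (limma adjusted p = 0.245). Ackr3, which scavenges Cxcl12, had log2 fold changes of -0.25 in skin (limma adjusted p = 0.655) and -0.34 in HFSC (limma adjusted p = 0.329). Ccr10, Cxcr6 and Ackr4 were listed at 0 in both tables.

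Cytokines that induce chemokines and feedback genes of the NF-kB pathway made up a list of 28, of which 25 were matched. In skin 0 of 16 tested genes passed by limma, edgeR or DESeq2. At an unadjusted p under 0.05 limma had 2 higher and 0 lower, against 14.2% of all genes in either direction. In HFSC 3 of 14 tested rose and 0 fell, against 10.7% and 8.74% of all genes. At an unadjusted p under 0.05 limma had 4 higher and 1 lower, against 32.8% of all genes in either direction. edgeR called 3 higher and DESeq2 called 4 higher, each with 0 lower. Zc3h12a, an RNase that degrades inflammatory transcripts, had a mean of 109 in HFSC control and 438 in HFSC eKO, which is 2.02 on the log2 scale (SE 0.21, limma adjusted p = 3.50e-05). Nfkbiz, a nuclear regulator of NF-kB targets, had means of 254 and 602 and rose by 1.22 on the log2 scale (SE 0.19, limma adjusted p = 6.34e-04). The alarmin Il33 had means of 344 and 582 and rose by 0.74 on the log2 scale (SE 0.17, limma adjusted p = 0.00831). Over the 14 genes the median log2 fold change was 0.02, beside -0.03 over all genes tested in HFSC.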

How the data were processed

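Whole back skin (5 control, 5 eKO) and sorted HFSC (3 control, 3 eKO) were sequenced, and the authors deposited 1 table of normalised values per tissue. The deposited values are a signal that the files themselves show to be gene reads divided by 1 size factor per library: dividing by the smallest step of each column gave whole reads, within 0.01, for 100% of nonzero values. The submitters' processing notes name GRCm39 for both tissues and featureCounts and DESeq2 for skin. Their versions, the aligner and the handling of strand and of shared reads are not given in the sources used here, so members with near-identical copies (Ccl21a and Ccl21b, Ccl27a and Ccl27b, the Ccl19 copies) or overlapping genes are uncertain to that extent.

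Gene names and exon lengths came from GENCODE M21, which matched 94.1% of 55357 skin rows and 91.4% of 56953 HFSC rows, with 55305 rows in both tables. Promoters were RefSeq entries on GRCm38.p6, found for 26 of 39 members, and no coordinates of the tables are used.

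Each tissue was fitted with limma 3.58.1 (trended prior) on log2(value + 1). A gene was tested where at least 5 skin or 3 HFSC libraries reached a value of 10, with Benjamini-Hochberg adjustment over all genes tested. Fold changes on this scale understate low genes. The difference between tissues was a contrast in a 4-group limma fit. Alternatives were edgeR 4.0.16 and DESeq2 1.42.0 on recovered reads, library size alone, pseudocounts of 0.5 and 5, no filter, a value of at least 20, each library left out, a hair list covariate, and skin without the libraries at Y-linked background. In simulated counts, changes were planted in a random subset of genes with means well above the filter. Recovery was therefore not measured for members with low values. Of the planted changes limma recovered 59% of 2-fold and 95% of 4-fold in skin (16433 genes fitted) and 63% and 92% in HFSC (13467 genes fitted). For the difference it recovered 27.8% and 89.6% (12981 genes fitted). False calls made up 4.35%, 7.19% and 5.73% of calls.

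No libraries were duplicates: over 26 pairs within groups, the chi-square per degree of freedom was 5.65 to 109.9. Depth was 6.43 to 16.4 M reads (M for mega). Counting intervals (95%) cover counting error only, and floors of 3 reads cover that of the control reads alone.

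Described in full were members past a threshold in either tissue or in the difference, Ccl20, the 5 largest changes per tissue and the 3 highest means per table, which gave 13 members. The members and gene lists were chosen with earlier results of these data known.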

Additional observations from a re-analysis of the deposited data

Results flagged for a closer look

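In 38 sets of 5 skin libraries (19 members in each of the control and eKO groups), 6 sets had an extreme library whose gap to its neighbour, as a share of the range, was above the 95% critical value of Dixon's test for 5 values, which chance gives in about 1 in 20 sets. In these 6 the share was 0.755 or more. In skin control 2, Ccl9 was 3830.4 (next library 520.3), Ccl7 was 409.8 (next 106) and Cxcl13 was 86.0 (next 13.3). In skin eKO 4, Ccl9 was 1467 (next 549.9), Ccl7 was 309.9 (next 103) and Ccl24 was 119.8 (next 36.5). The genotype effects of skin and HFSC differed by limma for Ccl20, by a log2 difference of 2.65, and for Cxcl12, by -1.71.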

How the results depend on the processing

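Of the members called in HFSC, Ccl20, Cxcl12 and Cxcl16 kept their call under all 14 alternatives, Cxcl9 under 12, Ccl25 under 11, Cx3cl1 under 9 and Ccl7 under 4. In skin Ccl20 kept it under 16 of 20, and in the difference Cxcl12 kept it under 23 of 23 and Ccl20 under 16 of 23. Members called higher in skin numbered 2 with DESeq2, 0 without the libraries at Y-linked background (where 0 genes of all passed), 0 without control 2 and eKO 4 (added after seeing the data) and 0 to 1 with a library left out, and members called lower numbered 1 with DESeq2. Over all skin genes DESeq2 called 656 and limma 62. Members called higher in HFSC numbered 3 with library size only and 2 to 5 with a library left out, and those called lower 1 to 2. In the difference, members called more positive numbered 0 with pseudocount 5 and 0 to 1 with a library left out, and more negative 1 to 2. Signs turned for members that did not pass. In skin, Ccl7 was -0.12 with edgeR and -0.11 with DESeq2, Ccl9 was -0.63 with both, and Cxcl14 was -0.0952 without the libraries at Y-linked background and -0.0930 without control 2 and eKO 4. With a library left out the skin estimates ran from -0.24 to 1.16 for Ccl7, -0.15 to 1.30 for Ccl9, -0.96 to 0.15 for Cxcl1 and -0.13 to 0.22 for Cxcl14. In the difference, library size only gave -0.0203 for Cxcl14 and -0.0064 for Cxcl16, and with a library left out the estimates ran from -0.0840 to 0.27 for Cxcl14, -0.0719 to 0.26 for Cxcl16 and -0.0777 to 0.74 for Cxcl9. The causes were not tested.

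HFSC replicates with the same number did not deviate together (correlations -0.06, -0.02 and -0.03). These values gave no sign of pairing by number but cannot exclude it, with 3 libraries per group. With the replicate block, 2696 genes were called against 2673, with 4 members higher and 2 lower. Ccl7 missed the threshold (log2 fold change 1.66, limma adjusted p = 0.0569).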
